A study of Mus musculus with 6 samples.

Results

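The regions described here are the 1959 T set regions of primary mouse cardiac fibroblasts whose CUT&Tag density fell to 0.5 or less of the NC level with TGF-b and then rose at least 2-fold with TGF-b plus an siRNA. They are called the lowered and regained regions. They were selected on the deposited normalized read density of 3 libraries, out of 170877 T set regions of the table that compares NC with TGF-b. A region had to have an NC density of at least 5, a TGF-b over NC ratio of at most 0.5, and an overlap of at least 1 bp with a region of the table that compares TGF-b with the siRNA library at a ratio of at least 2. Both ratios are therefore the selection itself and are given as a description, with no test.

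CUT&Tag uses an antibody to bring a transposase to chromatin, and reads collect where the antibody's target sits. The study profiled SRF and TAZ, and the T set is read here as TAZ, an inference from the titles NC-T, T-T and SI-T, since no label states the antibody. Each of the 6 libraries came from primary cardiac fibroblasts of mouse heart, with 1 library per treatment and set, so no treatment could be tested and every interval below covers counting error only. The T set held an NC library, a TGF-b library and a library labelled TGF-b+SiTAZ, and the S set held NC, TGF-b and TGF-b+SiSRF. In the paper's account of these experiments the siRNA targeted Piezo2 and the control was scrambled, whereas the labels name TAZ and SRF, so the siRNA is not tied to a target here and NC is used as labelled. The series' design text speaks of Tet3 knockout by a Cre virus, which no sample label carries. Age, sex, genotype and the number of animals behind the cells are not given in the sources used here. Of 11 fibroblast identity genes, 8 had a T set region of any density, and Tcf21, Thy1 and S100a4 had none, which measures chromatin reads and not expression. None of their 28 regions with an NC density of at least 5, in 7 genes, was lowered and regained, a share of 0% with an interval up to 12.1% that holds the 2.47% of all such regions.

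TAZ, the product of Wwtr1, is a transcriptional coactivator with no DNA-binding domain of its own. It enters the nucleus when Hippo kinases are inactive, for example on a stiff matrix, and reaches DNA mainly through the TEAD factors, often at distal enhancers that also carry AP-1. TGF-b is the cytokine that drives fibroblasts towards contractile, matrix-producing myofibroblasts through SMAD proteins. The regions here had less signal with TGF-b and at least 2-fold more again with the siRNA, often short of the NC level. The same conditions in reverse order, a TGF-b density of at least 5, a rise of at least 2-fold and then a fall to 0.5 or less, held for 8256 of the 58627 regions listed in both tables. The count cannot be set against 1959 as a measure of which order is more common. The second table holds regions called in the TGF-b or the siRNA library, and only 10.6% of the lowered regions were listed there.

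The nearest annotated start sites give a view of the DNA behind some of these regions. Of the lowered and regained regions, 79 overlapped the stretch from 250 bases before to 50 bases after the start of their assigned transcript, and 26 of these, in 26 genes, could be matched by symbol and transcript start to a RefSeq promoter of 300 bases (GRCm38.p6). The genome build of the regions themselves is not that of these promoters, so the promoters were matched by name and not by position. Among the 26 promoters 2 held the TEAD letters GGAATG on either strand (7.69%, 95% Wilson interval 2.14 to 24.1), against 14.6% of all 32544 RefSeq promoters. None held the AP-1 letters TGANTCA, a share of 0% with an interval up to 12.9%, against 7.79% of all promoters. The SMAD letters GTCTG were in 13 (50%, 32.1 to 67.9) against 49.5% of all, the E-box CANNTG was in 15 (57.7%, 38.9 to 74.5) against 72.3%, and a CArG box, the motif that SRF binds, was in 1 against 1.64% of all. The interval of the 26 held the share of all promoters for each of these motifs. Median GC content was 58.3% in the 26 promoters and 53.0% in all, and a CpG was in all 26 and in 94.6% of all promoters. The median number of CpG was 17.5 in the 26 and 7 in all. All promoters are thus not matched to the 26 in CpG, and motif shares of a matched set were not computed. Sequences are shown for the promoters of Ifi30 and Neil3, the 2 of the 26 with the highest NC density, and for the 3 that held a TEAD or CArG match, Pigu, Ogn and Filip1l. Capitals mark TEAD, SMAD and CArG matches on either strand, and the last 50 bases follow the start site.

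Ifi30 (chr8:70766614-70766913, minus strand): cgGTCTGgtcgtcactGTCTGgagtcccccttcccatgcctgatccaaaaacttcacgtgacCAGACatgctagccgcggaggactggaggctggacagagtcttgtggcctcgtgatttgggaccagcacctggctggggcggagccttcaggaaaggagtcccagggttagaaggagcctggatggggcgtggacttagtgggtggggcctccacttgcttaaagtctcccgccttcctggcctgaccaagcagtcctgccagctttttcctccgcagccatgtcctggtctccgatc
Neil3 (chr8:53639016-53639315, minus strand): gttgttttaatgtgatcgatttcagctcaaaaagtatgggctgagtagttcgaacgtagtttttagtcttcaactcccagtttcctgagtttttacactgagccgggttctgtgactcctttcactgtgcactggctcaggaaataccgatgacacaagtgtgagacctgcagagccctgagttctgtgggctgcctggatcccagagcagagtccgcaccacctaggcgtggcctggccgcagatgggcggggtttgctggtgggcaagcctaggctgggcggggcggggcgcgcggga
Pigu (chr2:155357375-155357674, minus strand): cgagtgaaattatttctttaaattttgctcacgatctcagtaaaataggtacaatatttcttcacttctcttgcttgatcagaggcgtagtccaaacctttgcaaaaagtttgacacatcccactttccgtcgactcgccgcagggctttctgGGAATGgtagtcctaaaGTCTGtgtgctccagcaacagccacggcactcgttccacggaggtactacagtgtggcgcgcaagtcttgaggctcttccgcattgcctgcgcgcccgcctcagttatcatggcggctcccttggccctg
Ogn (chr13:49607765-49608064, plus strand): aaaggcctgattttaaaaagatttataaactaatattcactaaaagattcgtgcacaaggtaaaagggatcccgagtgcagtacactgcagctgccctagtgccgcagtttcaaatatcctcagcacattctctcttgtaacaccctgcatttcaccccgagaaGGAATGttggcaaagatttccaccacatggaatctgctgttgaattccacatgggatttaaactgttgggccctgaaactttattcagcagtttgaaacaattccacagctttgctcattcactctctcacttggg
Filip1l (chr16:57548992-57549291, plus strand): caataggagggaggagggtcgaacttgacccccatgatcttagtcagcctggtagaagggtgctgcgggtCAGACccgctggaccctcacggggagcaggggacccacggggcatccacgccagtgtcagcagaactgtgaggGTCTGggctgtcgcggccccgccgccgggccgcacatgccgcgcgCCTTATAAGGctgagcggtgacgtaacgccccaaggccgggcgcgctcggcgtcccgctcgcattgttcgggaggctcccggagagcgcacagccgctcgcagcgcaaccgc

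In the Filip1l promoter the CArG letters began 62 bases before the RefSeq start site. The lowered and regained region there (chr16:57369421-57369579 in the files) ran from 184 to 26 bases before the start of its assigned transcript. Filip1l had 23 reads in the NC library, 7 with TGF-b and 17 with the siRNA. Ogn, which encodes the small leucine-rich proteoglycan osteoglycin of the extracellular matrix, had 18, 6 and 19 reads. Its TEAD letters began 86 bases before the RefSeq start. Pigu, a subunit of the enzyme that attaches GPI anchors to proteins, had 25, 11 and 27 reads. Its TEAD letters began 97 bases before the RefSeq start, and its region began 82 bases before the start of its assigned transcript. Promoters were matched with up to 50 bases allowed between both kinds of start, so whether these letters lie inside a region is not settled. In each of the 3 the TGF-b library was the lowest. A match of letters is a description and not a binding site.

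The selection passed few regions, and the steepest step was the requirement that a region be listed in both tables. Where NC was compared with TGF-b, 43541 of 170877 regions (25.5%) had an NC density of at least 5 and a TGF-b density of 0.5 of it or less. Only 4615 of these were listed in the second table, which holds regions called in the TGF-b or the siRNA library. There, 89445 of 180104 regions (49.7%) rose at least 2-fold with the siRNA. Among the 4615, 1959 did so (42.4%, 41.0 to 43.9) and 2656 did not. The lowered and regained regions were thus 2.47% of the 79375 regions with an NC density of at least 5. The TGF-b library is the denominator of one ratio and the numerator of the other, so a low count there by chance lowers the first ratio and raises the second.

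**Figure D1:**
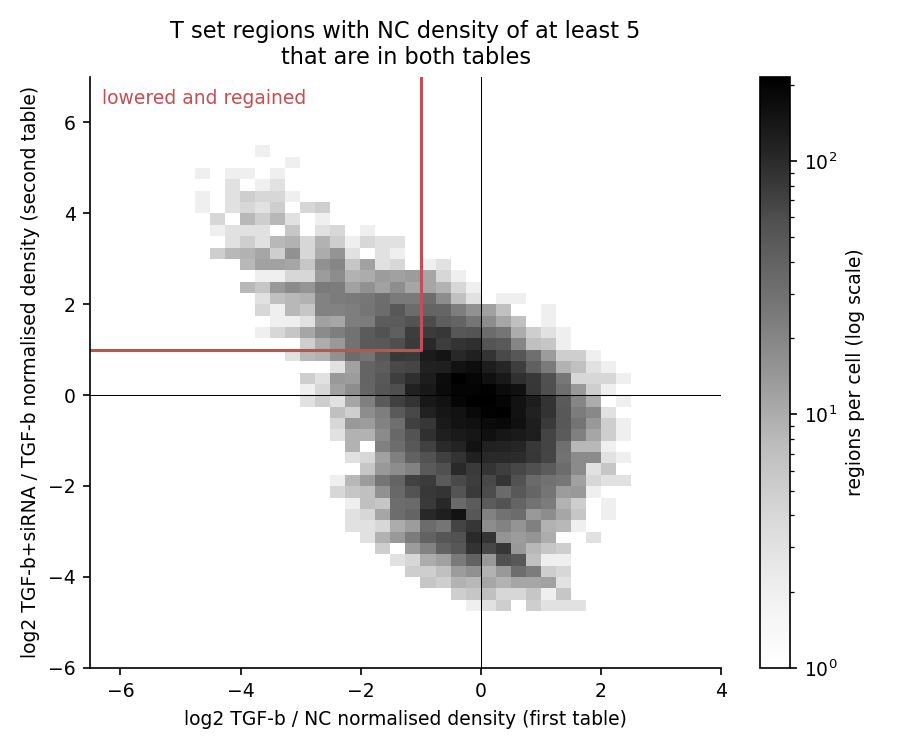
Log2 ratio of TGF-b over NC density (horizontal) against log2 ratio of TGF-b plus siRNA over TGF-b density (vertical) for the 22101 T set regions with an NC density of at least 5 that were listed in both tables, as counts per cell on a log grey scale. The red lines mark ratios of 0.5 and 2, and the 1959 lowered and regained regions fill the upper left corner without a gap from the rest.

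The reads behind these densities were few. A deposited density is the reads plus 1 in a window of 2 kb, 0.5 per read, rescaled by the authors, and undoing that step gave whole reads. The lowered and regained regions had a median of 19 reads in the NC library (range 10 to 842), 4 with TGF-b (0 to 424) and 13 with the siRNA (3 to 710). In 879 regions (44.9%) the TGF-b library had 3 reads or fewer, and in 208 it had none. The median log2 ratio was -1.96 for TGF-b over NC and 1.87 for siRNA over TGF-b. Over all T set regions of each table these medians were -0.65 and 0.97, so the whole tables lean the way the selection asks, and with both ratios centred on those medians 752 of the 1959 regions still passed. The counting intervals of both steps lay beyond no change in 1459 regions (74.5%) and beyond a 2-fold change in 328 (16.7%). The sum of both log2 ratios, which sets the siRNA library against NC across separately normalized tables, had a median of -0.04, lay within 1 of 0 in 1630 regions and was at or below -1 in 196. That sum was at or above 0 in 939 regions, whereas by unscaled reads the siRNA library reached the NC level in 380.

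The threshold cut through a continuum. The region of Amotl1, which encodes a scaffold protein that holds YAP and TAZ in the cytoplasm, lay just inside with a siRNA over TGF-b ratio of 2.001, and a region of Ankle1, at 1.99, lay just outside. A region of Gm56536 had a TGF-b over NC ratio of 0.4997 and one of Timm22 had 0.5001. The lowest NC density inside was 5.10, from 10 reads, and the next below the limit was 4.73, from 9 reads.

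The class given by the authors, which states in which library a peak was called, followed the selection for most regions. Of the lowered and regained regions 1583 (80.8%, 79.0 to 82.5) were called in NC and in the siRNA library but not with TGF-b, a class that held 18.1% of the 22101 regions of NC density at least 5 listed in both tables. They made up 68.5% of the 2312 lowered regions of that class, whereas 55 of 699 lowered regions called in NC and TGF-b but not with the siRNA were regained (7.87%). A further 142 were called in all 3 libraries and were deeper, with median reads of 36, 12 and 27. Another 27 were called in TGF-b and siRNA. The remaining 152 (7.76%) were called with TGF-b only, although their density was lowest there, with median reads of 18 in NC, 5 with TGF-b and 14 with the siRNA. That class held 37.3% of the 22101. Another region that was called in NC lay within 2 kb of 89 of the 152 (58.6%, 50.6 to 66.1), against 511 of the 1583 (32.3%). Reads of such a neighbour can fall in the same window, and their part in these counts was not tested.

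Regions of this last kind included intron regions of known genes. Elk3 encodes an ETS factor that partners SRF, and its region (chr10:93124190-93124286) had 74 NC reads, 25 TGF-b reads and 55 siRNA reads. A second lowered and regained region of Elk3, called in all 3 libraries (chr10:93123603-93123956), shares that window and had 72, 25 and 55 reads. Nedd9, a focal adhesion scaffold, had 60, 11 and 18 reads at chr13:41484523-41484655, and Pxdn, a peroxidase that crosslinks collagen IV, had 36, 13 and 23 at chr12:30053677-30053780. In all 3 the library in which the peak was called held the fewest reads of the 2 kb window. Their called intervals are 97 to 133 bases wide, much narrower than the window in which reads were counted. These 3 were picked after their values were seen.

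Most lowered and regained regions lay away from promoters. Introns held 915 of them (46.7%, 44.5 to 48.9), 771 had no assigned gene (39.4%, 37.2 to 41.5), and 130 lay in promoters as the authors annotated them (6.64%, 5.62 to 7.83). Exons held 72, stretches downstream of genes 34, 3′ UTRs 28 and 5′ UTRs 9. Among all regions with an NC density of at least 5 the promoter share was 11.2% (11.0 to 11.4), the intron share 44.9% and the share without a gene 35.3%. Over all 170877 T set regions the shares were 7.66% in promoters, 44.5% in introns and 40.4% without a gene. Most T set regions thus lay away from promoters too, and the promoter and no-gene intervals of the lowered and regained regions held these shares. The median distance to a TSS was 11814 bases for the 1188 lowered and regained regions with a gene and 8424 bases for the regions of NC density at least 5. Within 1 kb of a TSS lay 147 of the lowered and regained regions (7.50%, 6.42 to 8.76), against 15.3% of those of NC density at least 5. The share was 16.2% (15.4 to 17.0) for the regions that moved in the opposite order. For the regions that fell and were not regained it was 9.26% (8.22 to 10.4), an interval that overlaps that of the regained. Called width had a median of 152 bases against 100 for regions of NC density at least 5. The regions that fell and were not regained were alike in both, at 11741 bases to a TSS and a width of 168 bases. The regions of the opposite order had a width of 151 bases. Over all T set regions the median width was 96 bases, so width contrasted with all T set regions and with those of NC density at least 5.

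The promoter share dropped at the fall, from 11.2% to 5.16% (4.95 to 5.37), rose to 6.91% (6.22 to 7.68) among the lowered regions listed in both tables, and was 6.64% after the regain. Of the promoter regions with an NC density of at least 5, 25.3% were lowered, against 58.2% of intron regions and 62.8% of regions without a gene. Among lowered regions listed in both tables, 130 of 319 promoter regions were regained (40.8%, 35.5 to 46.2), 915 of 2191 intron regions (41.8%, 39.7 to 43.8) and 771 of 1776 regions without a gene (43.4%, 41.1 to 45.7). These intervals overlap. The regions that fell and were not regained had nearly the same promoter share, 7.12% (6.20 to 8.16), as the lowered and regained ones. Since the fall is part of the selection, this is a description of what was selected.

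**Figure D2:**
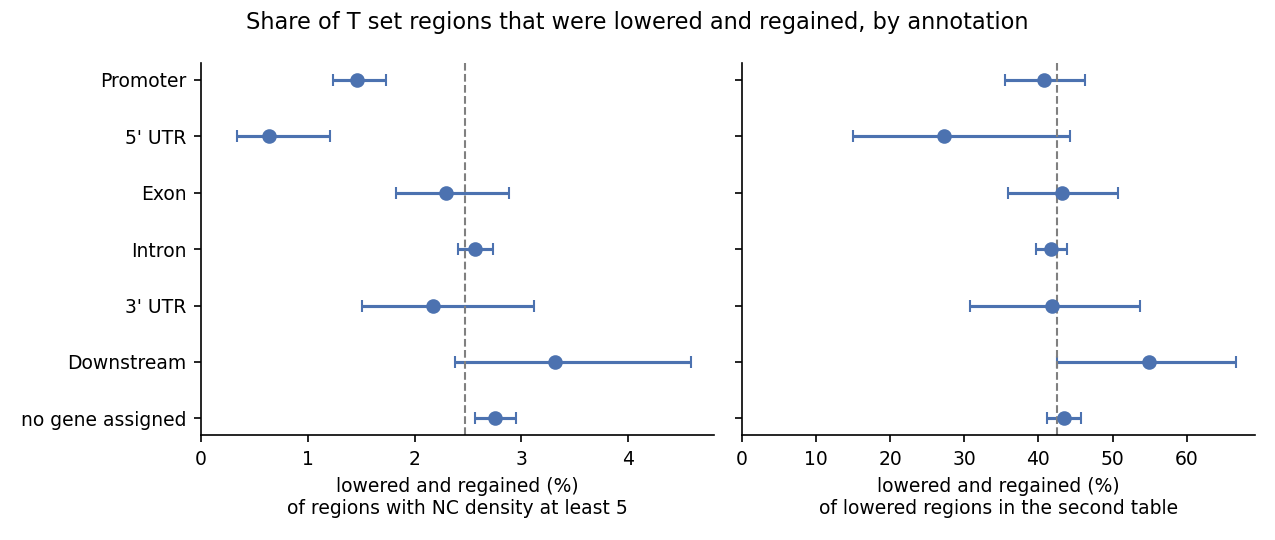
Share of T set regions that were lowered and regained (percent, points with 95% Wilson intervals) by the authors' annotation, among all regions with an NC density of at least 5 (left) and among lowered regions listed in the second table (right). The dashed lines are the shares over all annotations, 2.47% and 42.4%, and the intervals of promoters (1.46%) and 5′ UTRs (0.64%) lie below the line on the left and reach it on the right.

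Chromosomes differed little. The share of regions with an NC density of at least 5 that were lowered and regained ran from 2.05% on chromosome 7 to 2.99% on chromosome 13 among the autosomes and was 2.17% on X. The contig JH584304.1 had 4 of 27 (14.8%, 5.92 to 32.5), an interval above the 2.47% of all such regions. Merging regions within 2 kb of each other left 1930 loci, so few of the regions share a read window.

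Within 1 kb of a start site, the 8 regions with the highest NC density were assigned to Lincmd1, Ifi30, Gm29152, Neil3, Gm49319, Arhgef7, Lactb2 and Hipk1. Neil3, a DNA glycosylase that removes oxidized bases and opens interstrand crosslinks, had 62 NC reads, 8 TGF-b reads and 30 siRNA reads in a region over its start (chr8:54092004-54092244). Its log2 ratio was -2.77 (counting interval -3.96 to -1.88) for TGF-b over NC and 2.25 (1.27 to 3.47) for siRNA over TGF-b. Lactb2, a mitochondrial endoribonuclease, had 56, 19 and 53 reads (chr1:13730739-13730945), where log2 changed by -1.50 (-2.30 to -0.81) and then by 1.91 (1.21 to 2.70). In Lactb2 the siRNA library was close to NC, and in Neil3 it lay between both other libraries.

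Arhgef7 encodes beta-PIX, an exchange factor for Rac and Cdc42 at focal adhesions, and its intron region (chr8:11848213-11848657) had 61, 9 and 25 reads. Hipk1, a nuclear serine/threonine kinase, had 55, 16 and 25 (chr3:103697367-103697513). Ifi30, the lysosomal thiol reductase used in antigen processing, had 65, 11 and 17 (chr8:71219312-71219730). In these 3 the siRNA library stayed well under the NC reads, and the Ifi30 regain of 1.05 on the log2 scale had an interval that reached down to 0.02. Lincmd1, a long non-coding RNA of muscle, had 78, 19 and 28 reads (chr1:20749257-20749357). The predicted genes Gm29152 (65, 9 and 21 reads) and Gm49319 (61, 15 and 43 reads) complete the 8.

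**Figure D3:**
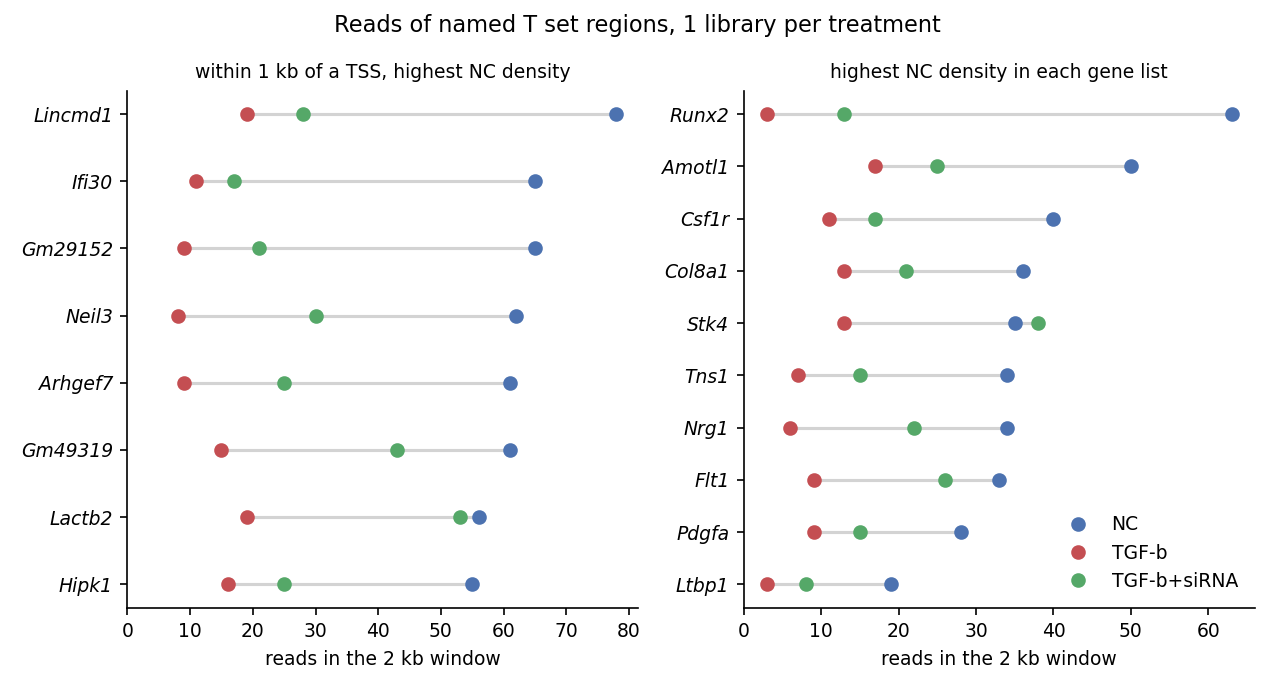
Reads in the 2 kb window in the NC, TGF-b and TGF-b plus siRNA libraries of the T set, 1 library each, for the 8 lowered and regained regions within 1 kb of a TSS with the highest NC density (left) and for the region of highest NC density in each gene list that had one (right). TGF-b has the fewest reads throughout, as the selection requires, and in unscaled reads the siRNA library exceeds NC only at Stk4, whereas the sum of both log2 density ratios is above 0 at Stk4 (0.63), Lactb2 (0.41) and Flt1 (0.20).

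Of the 8 regions with an assigned gene that had the highest NC densities, all but Lincmd1 and 1700104L18Rik lay in introns more than 10 kb from a start site. A pair of neighbouring regions in an intron of the non-coding gene D130079A08Rik (chr14:104574080-104574188 and chr14:104574388-104574486) had 116 and 110 NC reads, 16 TGF-b reads each and 60 siRNA reads each. They lie within 2 kb of each other and share reads. Lmx1a, a LIM homeobox factor, had 103, 11 and 28 reads (chr1:167633707-167634081), and Snx30, a sorting nexin, had 101, 22 and 37 (chr4:59823427-59823744). Pakap, a paralemmin and A-kinase anchor protein locus, had 96, 8 and 30 (chr4:57866230-57866434). Pmepa1 encodes a membrane protein that TGF-b induces and that restrains TGF-b signalling, and its region in intron 1 of 3 (chr2:173105377-173105726) had 90, 39 and 58 reads. The Pmepa1 log2 ratios were -1.23 (-1.79 to -0.71) and 1.04 (0.47 to 1.64). 1700104L18Rik, at 84, 19 and 28 reads, and Lincmd1, described above with its start site, lay in exons.

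The deepest swings among regions with a gene, ranked by the smaller of both log2 changes with TGF-b reads of 3 or fewer taken as 3, were at low TGF-b counts. Gm12055 had 38, 3 and 38 reads at a start site (chr11:22683019-22683181), where the log2 changes were -3.19 (-5.18 to -1.95) and 3.75 (2.51 to 5.74). Cd300c2, a receptor of myeloid cells, had 44, 3 and 24 reads (chr11:114888788-114889017), and 2900072N19Rik had 57, 4 and 27. Tmem9, a lysosomal membrane protein, had 46, 5 and 32 at its promoter (chr1:135935770-135935855). Dnm3, a dynamin of membrane fission, had 29, 1 and 30, Sgip1, an endocytic adaptor, had 31, 2 and 21, and Pde4d, a phosphodiesterase that breaks down cAMP, had 32, 3 and 20. Gm50199 had 33, 1 and 22. In Gm12055 and Dnm3 the siRNA library was at or above NC.

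In all, 1086 genes had a lowered and regained region, 6.24% of the 17394 genes that had any region of NC density at least 5. Genes with many such regions led the count. Of the 6999 genes with 1 such region 1.84% (1.55 to 2.19) had a lowered and regained region, and of the 112 genes with 20 to 61 such regions 50% (40.9 to 59.1) had at least 1. Counted per region the share ran from 1.84% in the former genes to 2.79% (2.27 to 3.44) in the latter. Only 87 genes had more than 1 lowered and regained region and 10 had more than 2.

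**Figure D4:**
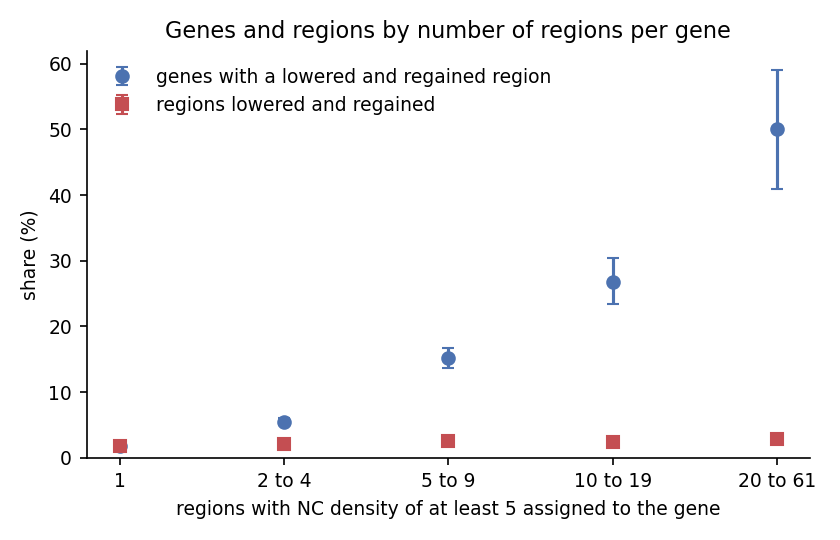
Share of genes with at least 1 lowered and regained region (circles) and share of their regions that were lowered and regained (squares), in percent with 95% Wilson intervals, by how many regions of NC density at least 5 the gene had. The share of genes climbs from 1.84% to 50%, whereas the share of regions stays between 1.84% and 2.79%.

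Syne1, which encodes nesprin-1 and links the nuclear envelope to actin, had 4 lowered and regained regions among its 23 with an NC density of at least 5. Its region at the start of a shorter transcript (chr10:5144420-5144922) had 49, 21 and 63 reads, which gave log2 changes of -1.18 (-1.94 to -0.48) and 2.02 (1.36 to 2.77). Dst, the cytoskeletal linker dystonin, had 4 of 32. The Dst region at chr1:34133449-34133671 had 36 NC reads, none with TGF-b and 17 with the siRNA. Against a floor of 3 reads it was at least 8.63-fold lower with TGF-b and at least 6.17-fold higher with the siRNA. Gm16347, whose 4 regions lie in introns of Csmd1, had 4 of 36. Dab1, Iqsec1, Ntng1, Sdk1, Gm16152 and Gm28750 had 3 each. Dab1 acts in reelin signalling, Iqsec1 is an exchange factor for ARF6 that acts on integrin traffic, Ntng1 is a membrane-anchored netrin and Sdk1 is an adhesion molecule.

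Gene lists of fibroblast activation held few of these regions. None lay at the 12 myofibroblast marker genes, which had 27 regions of NC density at least 5, 11 of them lowered, and none at the SRF targets (54 such regions) or the cell cycle genes (28). The mechanosensitive channel and TET genes had 67 such regions, 34 of them lowered. Over all regions of NC density at least 5, 54.9% were lowered, and only 10.6% of the lowered were listed in the second table and could pass the regain. These zeros do not set the lists apart from the 2.47% of all such regions, since the upper interval limits ran to 12.5% for the myofibroblast markers and 5.42% for the channel and TET genes.

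Among YAP and TAZ targets 2 of 163 such regions were lowered and regained (1.23%, 0.34 to 4.36), in Amotl1 and Rbms3. The Amotl1 region, in intron 1 of 12 (chr9:14507821-14508117), had 50, 17 and 25 reads. Rbms3, an RNA-binding protein, had 15, 5 and 14. Among the genes of YAP, TAZ, TEAD and the Hippo pathway, 1 of 107 was, in Stk4, which encodes the Hippo kinase MST1. The Stk4 region (chr2:163919046-163919283) had 35 NC reads, 13 TGF-b reads and 38 siRNA reads, and its log2 ratios were -1.32 (-2.29 to -0.48) and 1.95 (1.12 to 2.91). In the TGF-b pathway 1 of 108 was, in Ltbp1, the protein that tethers latent TGF-b to matrix, with 19, 3 and 8 reads.

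Collagens had 4 of 72 (5.56%, 2.18 to 13.4), in Col15a1 with 2, Col5a2 and Col8a1. The Col8a1 region had 36, 13 and 21 reads (chr16:57535552-57535912), and the Col15a1 region of more NC reads had 25, 6 and 18 (chr4:47251057-47251279). Col5a2, a chain of fibrillar collagen V, had 18, 2 and 4, and the interval of its regain reached below 0. Focal adhesion and integrin genes had 3 of 195, in Lpp, Tns1 and Tns3, which all encode proteins of adhesion sites. Tns1 had 34, 7 and 15 reads at 910 bases from a start site.

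Fibroblast transcription factors had 2 of 72, assigned to Runx2 and Foxp1. The region assigned to Runx2, a runt factor of bone and of matrix genes, lies in intron 2 of 11 of the neighbouring gene Supt3 (chr17:45147529-45147699) and had 63, 3 and 13 reads. Its first log2 change was -3.93 (-5.91 to -2.73), and its regain of 2.26 (0.86 to 4.28) left it under the NC reads. Growth factor signalling had 2 of 79, Fgf1 (10, 1 and 12 reads) and Pdgfa (28, 9 and 15). Long neuronal genes had 9 of 577 (1.56%, 0.82 to 2.94), in 8 of 24 genes, with Nrg1 the deepest at 34, 6 and 22 reads.

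Genes of other cell types gave single regions. Of the endothelial markers 1 of 36 such regions was lowered and regained, in the VEGF receptor Flt1 (33, 9 and 26 reads), and of the macrophage markers 1 of 7, in the CSF1 receptor gene Csf1r (40, 11 and 17 reads). Cardiomyocyte markers had none of 41, and smooth muscle and pericyte markers had none of 20. Every list with such a region had an interval that held the 2.47% of all such regions or, for the macrophage markers, began just above it at 2.57% with a single region. The part of other cells in these values was not tested.

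The S set, whose libraries took no part in the selection, allowed a look at the same places. Of the lowered and regained regions 197 (10.1%) overlapped a region of the S set table that compares NC with TGF-b, against 6.15% of T set regions with an NC density of at least 5. Among the 198 S set regions there, 78 were at 0.5 of NC or less (39.4%, 32.9 to 46.3) and 13 were at 2 or more (6.57%, 3.88 to 10.9). Over all 52712 S set regions the shares were 26.7% lowered and 17.4% raised. On reads without the authors' line the lowered shares were 22.7% (17.4 to 29.1) there and 15.3% over all. With the authors' line, 17.1% (16.1 to 18.2) of the S set regions overlapping T set regions of NC density at least 5 were lowered and 17.6% raised. At those overlapping the regions that fell and were not regained, 29.0% (23.5 to 35.3) were lowered and 9.38% raised. The interval of the lowered share at the lowered and regained regions lay above the share of all S set regions and above the share at T set regions of NC density at least 5, and it overlapped that at the regions not regained.

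Other values moved with this share. The median log2 ratio was -0.65 at the lowered and regained regions and -0.20 over all S set regions, but without the authors' line it was -0.10 and 0.36, so the regions here stayed lower than the whole table on both scales, while the median of the whole table turned from below to above 0 and that of the regions here came close to 0. S set regions called in NC only were 118 of the 198 there and 26830 of 52712 in the whole table, and within that class 55.9% (46.9 to 64.6) and 51.1% were lowered, a difference inside the interval. At lowered and regained regions with an assigned gene the lowered share was 34.0% (25.6 to 43.6), an interval that holds the 26.7% of all regions, and at those without a gene it was 45.3% (35.6 to 55.3).

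At the second step the raised share and the median of the S set at these regions were close to those at T set regions of NC density at least 5, whereas the share that fell was higher than there and lower than in the whole S set table. Of 208 S set regions at lowered and regained regions in the table of TGF-b and siRNA, 36 rose at least 2-fold (17.3%, 12.8 to 23.0) and 25 fell to 0.5 or less (12.02%, 8.28 to 17.1). The shares over all S set regions were 15.1% and 27.8%, and at T set regions of NC density at least 5 they were 16.0% and 7.88%. At the regions that fell and were not regained they were 19.5% (15.2 to 24.7) and 9.77%, so the raised share does not separate the regained regions from those. The median log2 ratio was 0.21 at the lowered and regained regions, 0.20 at T set regions of NC density at least 5 and -0.21 over all S set regions. Of the 114 lowered and regained regions with a region in both S set tables, 7 met both ratios in the S set too (6.14%, 3.01 to 12.1). The same held for 95 of 3535 T set regions of NC density at least 5 (2.69%, 2.20 to 3.27) and for 10 of 131 regions that fell and were not regained (7.63%, 4.20 to 13.5), so the count does not separate the regained regions from those. One of them, in Sos2, an exchange factor that activates RAS, had 36, 15 and 36 reads in the T set and 34, 16 and 35 in the S set. Stk32c had 14, 2 and 8 reads in the T set and 11, 4 and 13 in the S set, and Gm525 had 42, 17 and 91 and then 32, 20 and 49.

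**Figure D5:**
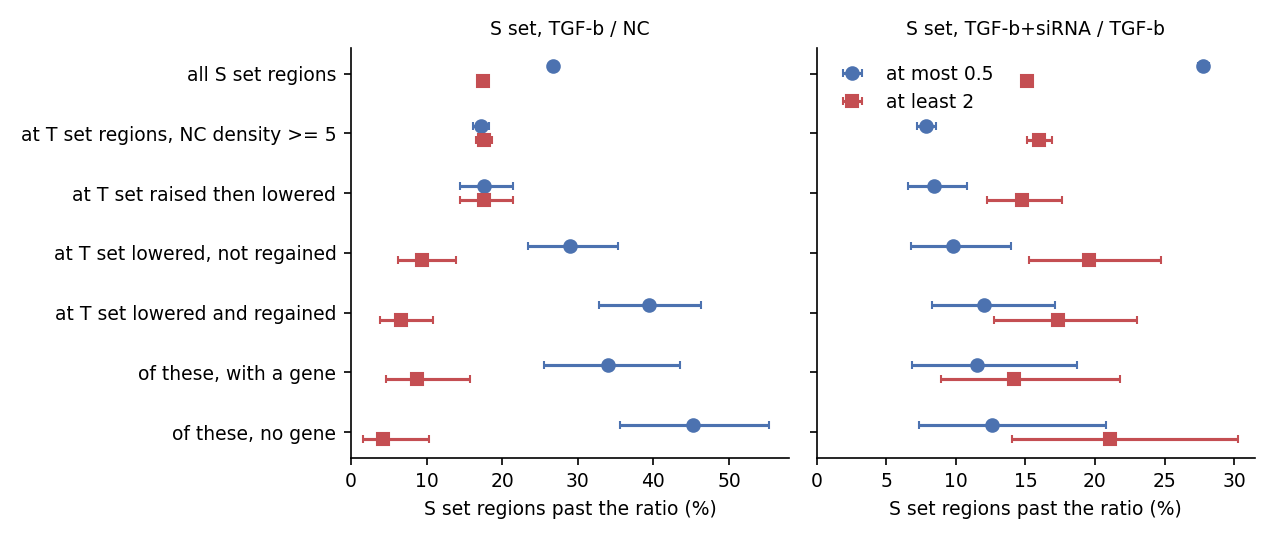
Share of S set regions (percent, with 95% Wilson intervals) at a ratio of 0.5 or less (circles) and of 2 or more (squares) for TGF-b over NC (left) and TGF-b plus siRNA over TGF-b (right), over all S set regions and at T set regions of each kind. On the left the lowered share is 39.4% at lowered and regained regions and 26.7% over all S set regions (22.7% and 15.3% without the authors' line, not drawn), and on the right the raised shares, 17.3% and 15.1%, do not separate.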

How the data were processed

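CUT&Tag was performed on primary mouse cardiac fibroblasts, 6 libraries in all, with 1 library per treatment and set and no replicates. The methods of the study give GRCm39 as the reference, Bowtie2 as the aligner and a peak caller spelled Masc2. The submitters' processing notes name mm10 and BWA 0.7.12 instead, and the coordinates and contigs of the files are those of GRCm39. The authors deposited 4 tables, each of 2 libraries of a set, whose normalized read density is a signal: reads plus 1 per kb over 2 kb, rescaled along a line in the mean log2 density, separately in each table. The spike-in DNA mentioned in the methods plays no part here. The tables also hold the authors' own fold and p-value columns, which were not used. Gene, annotation, TSS distance and class are the authors'.

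Reads were recovered by undoing that line (99.97% to 99.99% of regions whole within 0.1 read). A region was kept when the 3 density conditions held, with mitochondrial regions left out. The steps were tested on simulated data. Shares carry 95% Wilson intervals, and log2 intervals were derived from Wilson limits on the later library's share of a region's reads. These intervals cover counting error only, and library totals were not used. Where TGF-b had 0 reads, folds were set against a floor of 3 reads. Sample groups came from the titles and treatment labels. Named regions, all with an assigned gene except at the thresholds, were the 8 with the highest NC density, the 8 with the largest smaller change, the 8 within 1 kb of a TSS with the highest NC density, all regions of the 10 genes with the most (ties kept), the densest of each gene list, and those nearest each threshold. One gene that this rule names is not reported here. The regions, lists and rules were chosen with earlier results of these data known. Alternatives covered the thresholds, the overlap, the scaling and low reads.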

Additional observations from a re-analysis of the deposited data

How the results depend on the processing

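No paired analysis was possible because each treatment has 1 library in each set, and for the same reason no replicate could be left out. The planned comparison of base composition in windows of the regions was not run, since no genome of the files' build was used here. The number of lowered and regained regions was 3323 at 1.5-fold, 643 at 4-fold, 947 with an NC density of at least 10 and 752 with ratios centred on the median of all regions, which was -0.65 and 0.97 in the T set. It was 1592 on reads without the authors' line, of which 1483 were among the 1959, and between 1459 and 2554 under the other planned settings. The promoter share was 8.22%, 5.29%, 8.24% and 5.19% under the 4 settings named first, against 11.2% of regions with an NC density of at least 5. With the minimum of 10 that comparison was 8.24% against 17.4%, and with no minimum it was 5.95% against 7.66%, a smaller gap. None of the log2 ratios of the 68 named regions changed sign under centring, without the line, with a pseudocount of 1 density unit or with a floor of 3 reads, which the selection at 2-fold largely fixes and which says nothing about stability. Centring moved 17 of the 136 ratios beyond their counting interval. At the lowered and regained regions the lowered share of the S set was 50.5% at 1.5-fold, where all S set regions gave 38.2%, and 22.7% without the authors' line, where all gave 15.3%. The raised share of the second S set step was 28.8% at 1.5-fold, against 25.3% of all. In the S set comparison, the settings without the line, with an assigned gene and under 100 NC reads were chosen after seeing the data, and the cause of each shift was not tested. Depth limits most single regions, with a median of 4 TGF-b reads.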

Other observations

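The deepest lowered and regained regions had no assigned gene, and several sat near the starts of chromosomes. They were picked after their values were seen. The region at chr4:118404449-118405981 had 842 reads in the NC library, 424 with TGF-b and 710 with the siRNA, and was called in all 3. On chromosome 14, 4 of them between 3050335 and 3053517 had 216 to 562 NC reads, 111 to 235 TGF-b reads and 169 to 383 siRNA reads, and their read windows overlap. Another on chromosome 9 (chr9:3020249-3020560) had 123, 62 and 102 reads. The region at chr13:39643785-39644452 had 175, 39 and 139 reads in the T set and 108, 46 and 112 in the same order in the S set, so both sets fell and regained there. Another region near the start of chromosome 9 (chr9:3009440-3010084) also did so in both sets, with 24, 7 and 26 reads in the T set and 74, 26 and 60 in the S set. Apart from mitochondrial regions no stretch of the genome was left out, and how reads map near chromosome starts was not tested. Among S set regions called in both NC and TGF-b, 10 of 20 at lowered and regained regions without a gene were at 0.5 of NC or less (50%, 29.9 to 70.1), against 1 of 9 at those with a gene (11.1%, 1.99 to 43.5) and 7.42% of all S set regions of that class. Over both kinds, 11 of 29 were lowered (37.9%), and 5 of 22 (22.7%, 10.1 to 43.4) at lowered and regained regions under 100 NC reads in the T set, so the share rests in part on the few deep regions described above.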
